A study of Saccharomyces cerevisiae with 24 samples.

Results

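The 303 genes described here are those of Saccharomyces cerevisiae chromosome V (build R64) whose midpoint lies more than 25 kb from either end of the chromosome, out of 328 genes on chromosome V and 6664 genes in each of 3 deposited expression tables. The choice used position only. The genes run from YEL068C on the left to SLO1 on the right, 80 on the left arm and 223 on the right arm of the centromere at positions 151987 to 152104. Chromosome V is of interest because one strain of the series, XIIr<>V, carries a translocation between chromosomes XII and V; the labels do not give the point on chromosome V at which the chromosomes are joined.

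The series measured poly(A)+ RNA in budding yeast mother cells of the mother enrichment programme (MEP), in which estradiol stops newborn daughters from dividing so that biotin-labelled mothers can be recovered at a known culture age. Cells were grown in glucose-rich YPD medium, and the study concerns what ERCs, circular copies of ribosomal DNA outside the chromosomes, do to gene expression in ageing cells. The first table holds XIIr<>V diploids and their control, wt GST-V-U, sampled at 3 ages (log phase, 24 h and 48 h) as 1 library for each strain and age; both are labelled MEP diploid a/a with Tom70-GFP and without I-SceI, and only the control's genotype label also names ADE2 and pGST-V-U. The second table holds mus81 mutant and wild-type (WT) MEP diploids at the same 3 ages, with 2 libraries in each of 6 groups. The third holds hst3 hst4 mutants, with 2 libraries in log phase and 2 of aged mothers, and 1 WT library of each age; the titles give 48 h for its aged cells and another label field gives 24 h, so they are called aged here, and mutants were told from WT by the titles because the genotype field reads wild type for all 6. Nothing in the labels says whether libraries of 1 group came from separate cultures, so p-values measure the spread between libraries, which may be technical.

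The 24 libraries held 1656535 to 11330955 reads over all features, and the genes of chromosome V took 4.08 to 5.0% of reads over genes. Replicate libraries correlated over these genes with Pearson's r of 0.964 to 0.994. MUS81, HST3 and HST4, the deleted genes, had at most 10 reads in the libraries labelled mutant. In the translocation table, 11 genes that a/alpha diploids repress summed to 41.8, 151 and 189 RPM, reads scaled to a common library total, in XIIr<>V at log, 24 h and 48 h, and to 43.3, 143 and 182 RPM in wt GST-V-U. MFA1, an a-factor gene that a/a cells express, had 1, 7 and 16 reads in XIIr<>V and 3, 9 and 21 reads in wt GST-V-U. The log-phase sums lie below the 47.7 to 54.2 RPM of WT in the mus81 table, and with MFA1 they go against the a/a label of both strains. In bulk RNA, fewer cells of a type and less RNA per cell cannot be told apart. Of the 303 genes, 11 are uncertain because they share sequence with a copy elsewhere or lie across a neighbour of the same strand; each is called uncertain where it is named. Another property of 73 of the 303 is that they overlap a gene on the opposite strand, where the values depend on the strand used in counting. Just inside the limits lie YEL068C and SLO1, with log2 changes in WT at 48 h against log of 0.56 and -1.11, and just outside lie HXT13 and YER181C, with 3.66 and 1.53.

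A reciprocal translocation exchanges the ends of 2 chromosomes, so that genes keep their sequence and near neighbours but are carried on another chromosome, linked to another centromere or to other repeats. Chromosome XII holds the ribosomal DNA array from which ERCs are cut out and accumulate in old mothers. Chromosome V holds genes of most classes, among them the glycogen branching enzyme GLC3, the stress-induced chaperone SSA4, the ribosome biogenesis ATPase ARB1, the ribonucleotide reductase subunit RNR1, the transcription activator GCN4 and the uracil gene URA3. In ageing or slowly growing yeast cultures, genes for stress tolerance and reserve carbohydrates are commonly high and genes for making ribosomes commonly low.

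Promoters of 3 genes show the sequence context of large rises with age that are described further on. They are RefSeq sequences of build R64, each 300 bases long, from 250 bases before the annotated gene start to 50 bases after it, and read 5′ to 3′ on the gene's own strand. GLC3 (chrV:132870-133169, plus strand), SSA4 (chrV:364339-364638, plus strand) and PHM8 (chrV:225639-225938, plus strand) were all higher in WT at 48 h than in log phase. Capitals mark matches on either strand to any of 5 motifs searched, which are the stress response element STRE (AGGGG), PAC (GATGAG), the Gcn4 core (TGACTC), the MCB element (ACGCGT) and URS1 (GGCGGC).
GLC3: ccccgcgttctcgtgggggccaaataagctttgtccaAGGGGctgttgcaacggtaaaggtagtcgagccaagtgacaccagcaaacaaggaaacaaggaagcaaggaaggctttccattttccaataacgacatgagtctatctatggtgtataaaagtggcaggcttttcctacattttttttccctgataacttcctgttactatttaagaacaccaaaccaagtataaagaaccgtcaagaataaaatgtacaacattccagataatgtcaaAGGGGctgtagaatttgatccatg
SSA4: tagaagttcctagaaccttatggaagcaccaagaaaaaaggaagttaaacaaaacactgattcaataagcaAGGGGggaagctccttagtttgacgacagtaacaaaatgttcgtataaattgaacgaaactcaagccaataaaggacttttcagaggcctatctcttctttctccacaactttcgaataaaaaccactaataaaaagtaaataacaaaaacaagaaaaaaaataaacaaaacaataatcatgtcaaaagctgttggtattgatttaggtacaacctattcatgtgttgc
PHM8: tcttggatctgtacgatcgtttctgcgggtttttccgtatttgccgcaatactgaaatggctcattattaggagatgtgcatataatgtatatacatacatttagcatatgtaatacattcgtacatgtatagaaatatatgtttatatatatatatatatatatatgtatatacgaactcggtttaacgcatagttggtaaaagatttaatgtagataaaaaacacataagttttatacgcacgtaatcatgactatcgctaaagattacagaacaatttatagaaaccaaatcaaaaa
GLC3 held 2 copies of AGGGG, 1 before the gene start and 1 after it, SSA4 held 1, and PHM8 held none of the 5 motifs. No match in these 3 windows overlapped another. Windows of the same length were searched for UTR2, ARB1 and YER156C, which were lower in WT at 48 h. ARB1 held 1 AGGGG and 1 GATGAG, and UTR2 and YER156C held no match.

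The comparison of XIIr<>V with wt GST-V-U asked whether genes of chromosome V differ between the strain with the translocation and its control. Since only the control's label names ADE2 and pGST-V-U, the translocation and these other labelled differences cannot be told apart. In a fit over all 3 ages (limma, additive terms for strain and age), 0 of 303 genes were called at an adjusted p under 0.05, where 0.015% of all genes tested were called. At an unadjusted p under 0.05 there were 2 genes, 0.660% of the 303 against 1.17% of all genes, and limma-voom on the recovered reads also called 0. The median standard error of the strain difference was 0.23 on the log2 scale over the 303 genes, and the median absolute difference was 0.12. With 1 library per strain and age the fit has 2 residual degrees of freedom and cannot test whether a difference varies with age.

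Read by age, the strain difference of chromosome V followed that of all genes. Over the 225 genes above the 25th percentile of level, the median of XIIr<>V minus wt GST-V-U was -0.15 in log phase, 0.08 in 24 h cells and 0.04 in 48 h cells on the log2 scale, and over all 4997 such genes it was -0.14, 0.03 and 0.01. Relative to all genes chromosome V thus stood at -0.01, 0.06 and 0.03. The medians of the other 15 chromosomes, relative to all genes, spanned -0.07 to 0.08 in log phase, -0.15 to 0.05 at 24 h and -0.21 to 0.04 at 48 h, with chromosome XII lowest at both later ages. At 24 h chromosome V lay just above all 15, with its left arm at 0.14 and its right arm at 0.03. Genes of chromosome XII to the right of the rDNA, the other partner, stood at 0.03, -0.22 and -0.26. All these values come from 1 library per strain and age and carry no test.

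**Figure D1:**
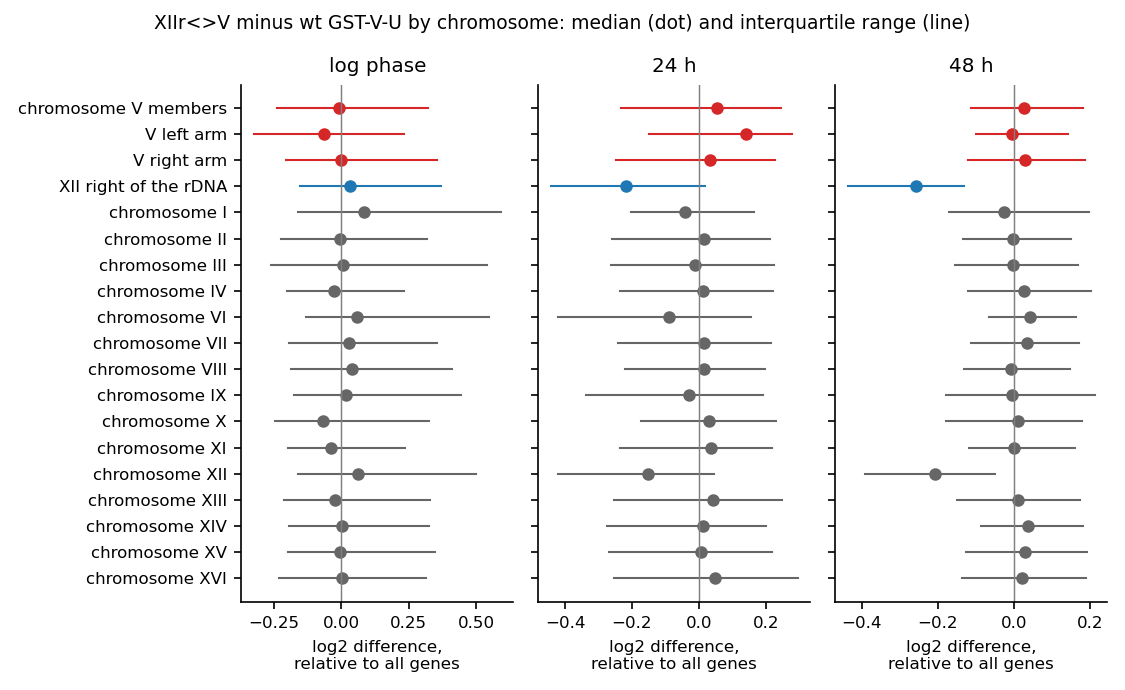
Median log2 difference, XIIr<>V minus wt GST-V-U, relative to the median of all genes (x axis), for chromosome V, its arms, XII right of the rDNA and each other chromosome (rows), at 3 ages; lines give the interquartile range over genes above the 25th percentile of level. Chromosome V lies at -0.01, 0.06 and 0.03, and XII right of the rDNA lies at -0.22 at 24 h and -0.26 at 48 h.

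Along chromosome V, divided into 10 bins of equal length, no stretch stood apart at every age. In log phase the bin medians relative to all genes spanned -0.16 in the bin that holds the centromere to 0.28 in the bin from 446220 to 498872. At 24 h that right-arm bin was the lowest at -0.12, and the leftmost bin was the highest at 0.17. At 48 h the leftmost bin was the lowest at -0.06 and the bin from 393568 to 446220 the highest at 0.13. The left arm had medians of -0.21, 0.17 and 0.01, and the right arm -0.14, 0.06 and 0.04, before the median of all genes is taken off.

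**Figure D2:**
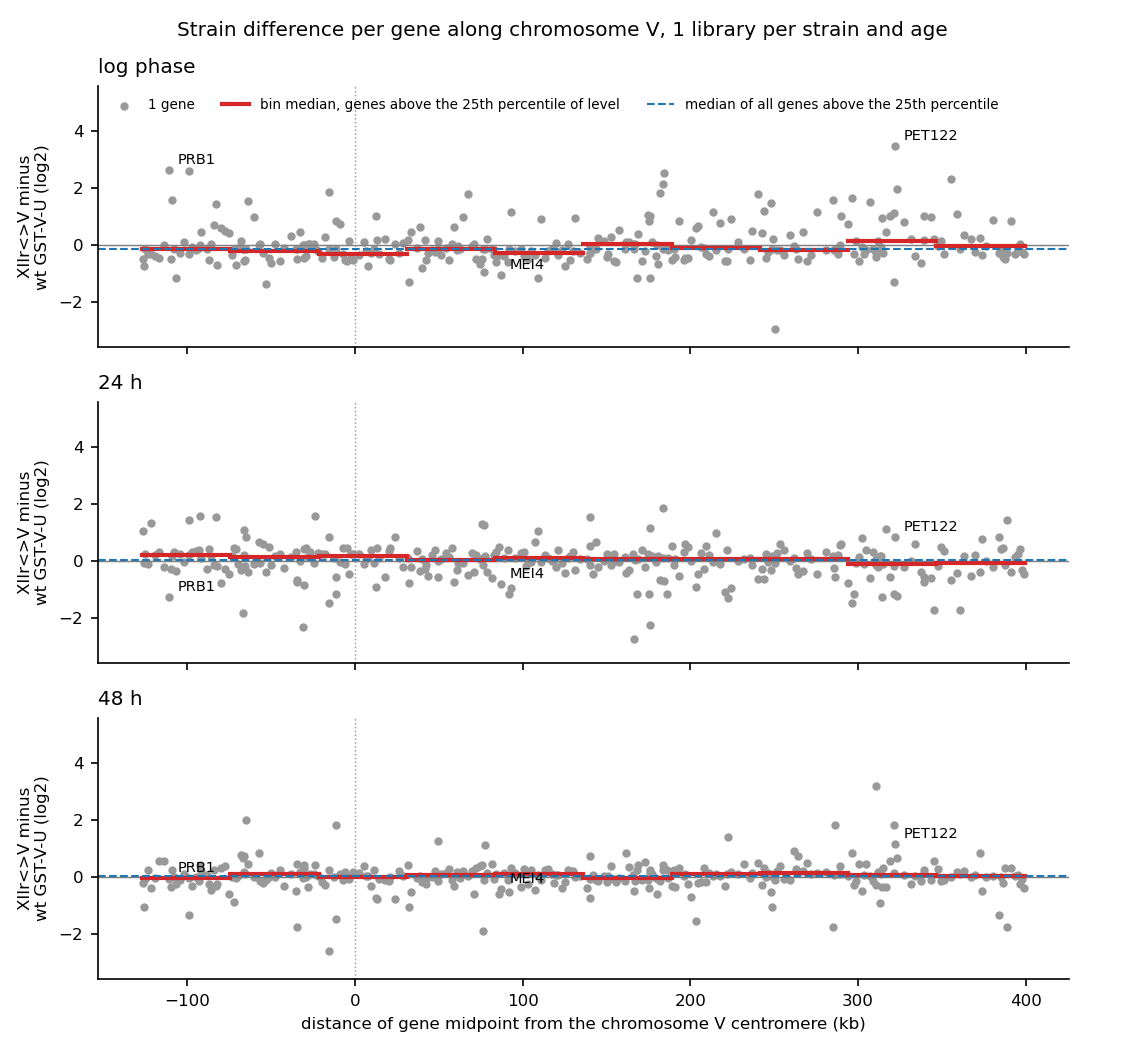
Log2 difference, XIIr<>V minus wt GST-V-U, of each of the 303 genes (points, y axis) by distance from the centromere in kb (x axis) at the 3 ages (log phase, 24 h, 48 h), and the median of each of 10 bins (red) and of all genes (dashed). Bin medians lie between -0.30 and 0.20 at all 3 ages, and single genes lie further from 0, such as PRB1 at 2.65 in log phase, -1.28 in 24 h cells and -0.06 in 48 h cells.

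The strain difference moved with gene length in these libraries. Across the 225 genes the Spearman correlation of the difference with length was 0.51 in log phase, -0.31 in 24 h cells and 0.22 in 48 h cells, and across all genes it was 0.54, -0.28 and 0.16; genes are not independent replicates and each value rests on 1 pair of libraries. In log phase the chromosome V genes of up to 723 bases had a median difference of -0.35 and those of at least 1929 bases 0.37. At 24 h the same sets of short and long genes had 0.11 and -0.22. What length stands for in this difference was not tested.

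In 3 genes with wide log-phase differences, picked after their values were seen, the difference had the opposite sign at 24 h. PRB1, the vacuolar protease B, had log2 values of 8.16, 7.72 and 8.97 in XIIr<>V at log, 24 h and 48 h, against 5.51, 9.0 and 9.03 in wt GST-V-U. It was thus 2.65 higher in XIIr<>V in log phase, 1.28 lower at 24 h and 0.06 lower at 48 h. CHD1, a chromatin remodeller, had 9.54, 8.24 and 8.65 in XIIr<>V, against 7.20, 8.91 and 8.68 in wt GST-V-U. OXA1, which inserts proteins into the mitochondrial inner membrane, had 8.70, 6.75 and 7.41 in XIIr<>V, against 6.72, 7.97 and 6.76 in wt GST-V-U. In all 3 genes the wt GST-V-U log library was the lowest of its strain. Among the 225 genes, 8.44% differed by over 1 on the log2 scale in log phase, 2.67% in 24 h cells and 0% in 48 h cells; over all genes these shares were 7.90%, 1.84% and 0.22%. Over all 303 genes, those of few reads included, 40 differed by over 1 in log phase (31 higher and 9 lower in XIIr<>V), 35 at 24 h (15 higher, 20 lower) and 21 at 48 h (9 higher, 12 lower). The same split over all genes is not given, so no direction particular to chromosome V is read.

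PET122, a translational activator of the mitochondrial COX3 messenger RNA, had the smallest unadjusted p of the 303 genes. It had 62, 20 and 13 reads (log2 values of 5.57, 4.16 and 3.70) in XIIr<>V at log, 24 h and 48 h, against 5, 5 and 7 reads (2.08, 3.32 and 2.56) in wt GST-V-U. XIIr<>V was higher at each age, the fitted log2 difference was 1.83 ± 0.55 (SE), and its limma adjusted p was 1.00. PET122 overlaps a gene on the opposite strand and its reads are few. The second gene was MEI4, a protein needed for meiotic double-strand breaks, with 10, 33 and 30 reads in XIIr<>V, against 19, 26 and 48 reads in wt GST-V-U. Its fitted difference was -0.77 ± 0.32 (SE), with a limma adjusted p of 1.00.

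When either or both of the 24 h libraries were left out, 8 of the 303 genes were called, all higher in XIIr<>V, where 2.29 to 2.42% of all genes were called. They were PRB1, MCM3 (a subunit of the replicative helicase), BOI2, PET122, OXA1, CHD1 and the uncertain genes PTC2 and YER088C-A. The direction of the calls over all genes is not given. A lone 24 h library is taken up by its own age term, so each removal rests on the log and 48 h libraries alone. All these removals gave the same fitted differences and are not separate support. With both left out, the fitted difference was 2.32 for PET122, which differed by 3.49 in log phase and 1.14 at 48 h. PRB1 had a fitted difference of 1.30, from 2.65 in log phase and -0.06 at 48 h. Such a fit leaves fewer residual degrees of freedom than the full fit, and its calls rest largely on the spread limma shares across genes. Of the 8, PET122 and YER088C-A had a difference above 0 at 24 h, and the other 6 were lower in XIIr<>V at that age.

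Among the 225 genes above the 25th percentile of level, which leave out PET122, 15 (6.67%) were higher in XIIr<>V at every age and 12 (5.33%) lower, and over all genes these shares were 4.88% and 9.25%. DNF1, a phospholipid flippase, had log2 values of 9.59, 9.50 and 9.74 in XIIr<>V, against 9.22, 9.33 and 9.54 in wt GST-V-U at log, 24 h and 48 h. GEA2, which activates Arf GTPases at the Golgi, was higher by 0.32, 0.15 and 0.11. FCY22, a purine-cytosine permease family member, had 5.48, 6.09 and 5.88 in XIIr<>V, against 6.22, 6.52 and 6.07 in wt GST-V-U. YER158C was lower by 0.62, 0.40 and 0.17 in XIIr<>V. URA3 had 0, 14 and 3 reads in XIIr<>V, against 0, 5 and 5 in wt GST-V-U, and neither the 23 genes within 20 kb of it nor the 24 within 20 kb of the centromere held a called gene, with median fitted differences of 0.01 and -0.05.

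The age of the cells moved chromosome V far more than the strain did. In WT of the mus81 table, 147 of 303 genes were called at 24 h against log (65 higher, 82 lower), where 48.6% of all genes tested were called (24.3% higher, 24.2% lower). At 48 h against log 186 were called (89 higher, 97 lower), where 63.1% of all genes were (33.0% higher, 30.1% lower). In mus81 152 were called at 24 h (68 higher, 84 lower), where 52.0% of all genes were (26.2% higher, 25.8% lower), and 173 at 48 h (75 higher, 98 lower), where 60.2% of all genes were (30.6% higher, 29.5% lower). Of the 186 called in WT at 48 h, 153 were also called in the same direction in mus81 at 48 h, and 0 in the opposite direction. In the translocation table, where both strains enter 1 fit, 97 genes were called at 24 h (60 higher, 37 lower), where 32.1% of all genes were (21.1% higher, 11.0% lower). At 48 h 115 were called (65 higher, 50 lower), where 40.3% of all genes were (23.1% higher, 17.2% lower). The share of chromosome V called was close to that of all genes in each comparison. In WT at 48 h the median of all genes tested was 0.15 as deposited, 0.02 after median centring and -0.11 after quantile normalization, and single values are read against that shift.

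**Figure D3:**
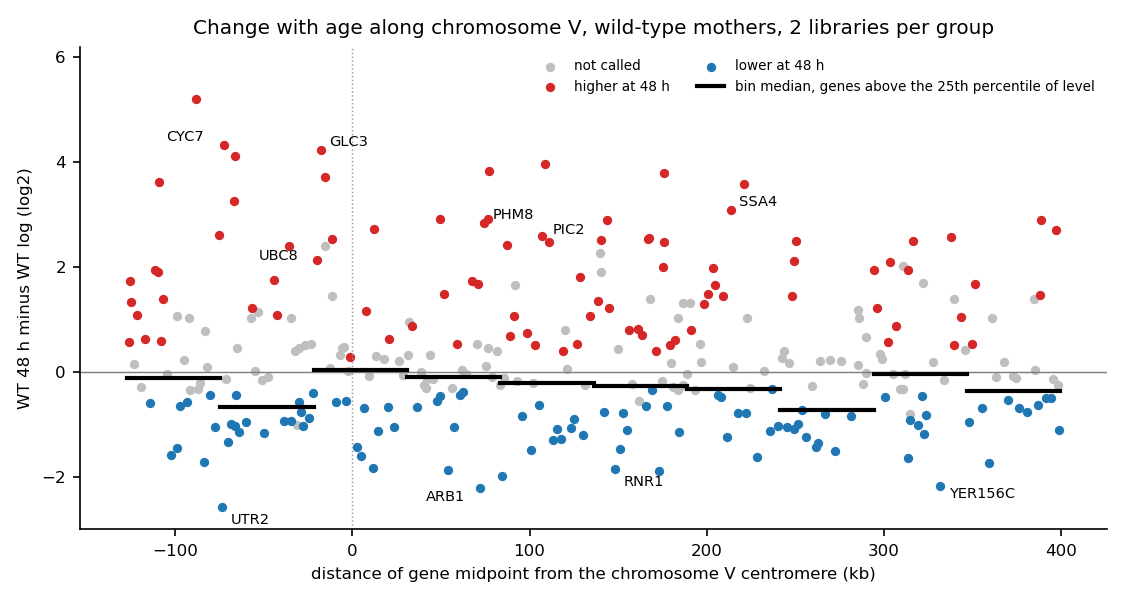
Log2 change of each of the 303 genes in WT at 48 h against log (y axis; 2 libraries per group) by distance from the centromere in kb (x axis), coloured by the limma call, with bin medians in black. The 89 higher and 97 lower genes are interspersed along both arms, and 2 bins lie lowest, with medians of -0.66 and -0.73.

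Among the 10 gene lists, genes of stress tolerance and of growth on carbon sources other than glucose rose most by median. The lists were chosen with earlier results of these data known, so their counts and ranking are descriptions. Of the 18 stress genes, 17 rose and 0 fell in WT at 48 h, where 33.0% of all genes tested were higher. Their median log2 change was 2.31, where the median of all genes tested was 0.15. GLC3 had 8.59 and 8.37 in WT at 48 h, against 4.29 and 4.21 in log phase, a change of 4.23 ± 0.20 (SE; limma adjusted p = 9.8e-10). SSA4, a cytosolic Hsp70, had 10.09 and 10.04 at 48 h, against 7.01 and 6.95 in log phase. For both genes the groups were far apart, with no overlap, and the 24 h libraries lay between. PHM8, a lysophosphatidic acid phosphatase, rose by 2.84 ± 0.25, PIC2, a mitochondrial copper and phosphate carrier, by 2.60 ± 0.25, and UBC8, a ubiquitin-conjugating enzyme that acts on a gluconeogenic enzyme, by 2.13 ± 0.20. PRB1 rose by 1.94 ± 0.22. CYC7, the cytochrome c isoform of low oxygen, rose by 4.33 ± 0.43 on 5 and 13 log-phase reads. RGI1, which is linked to respiratory energy metabolism, rose by 2.51 ± 0.27, and YER158C, whose role is not well known, by 2.57 ± 0.18. At 48 h 15 of the 18 rose in the translocation table, and 17 in mus81.

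Genes for ribosomes and translation fell together. All 19 of the list, also chosen with earlier results known, fell in WT at 48 h, where 30.1% of all genes tested were lower. Their median was -1.45 with a range of -2.22 to -1.03, and all 19 had also fallen at 24 h. ARB1 had 10.38 and 10.77 in WT at 48 h, against 12.78 and 12.81 in log phase, a change of -2.22 ± 0.18 (SE; limma adjusted p = 7.7e-08). UTP7, which acts in small-subunit rRNA processing, fell by 1.89, GCD11, the gamma subunit of translation initiation factor eIF2, by 1.87, NUG1, a GTPase of large-subunit export, by 1.83 and PAB1, the poly(A)-binding protein, by 1.73. In mus81 all 19 fell at 48 h, and 17 of 19 fell at that age in the translocation table.

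**Figure D4:**
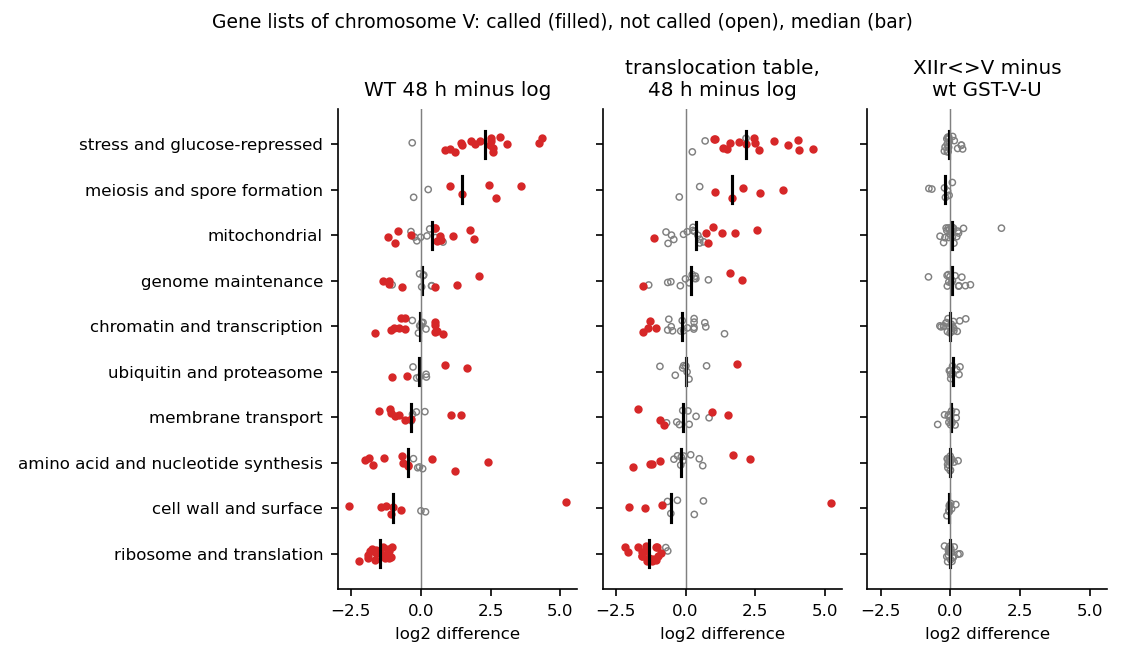
Log2 difference of each gene (x axis) in 10 lists of chromosome V genes (rows) for WT 48 h against log, for 48 h against log in the translocation table and for XIIr<>V against wt GST-V-U; filled points were called by limma and bars are medians. The stress and ribosome lists have medians of 2.31 and -1.45 in WT, and of -0.07 and -0.01 between XIIr<>V and wt GST-V-U.

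Single genes of biosynthesis and of the cell surface were among those with the widest falls. For the list counts below, 30.1% of all genes tested were lower and 33.0% higher in WT at 48 h. Of 15 genes for amino acid and nucleotide synthesis, 8 fell and 3 rose in WT at 48 h, with a median of -0.45, and after quantile normalization 4 fell and 4 rose, with a median of 0.03. RNR1, the large subunit of ribonucleotide reductase, had 9.80 and 9.69 in WT at 48 h, against 11.64 and 11.56 in log phase, and fell by 1.86 ± 0.15. SAH1, S-adenosylhomocysteine hydrolase, fell by 1.99, GLY1, threonine aldolase, by 1.72 and HIS1, the first enzyme of histidine synthesis, by 1.31. GCN4, which activates many such genes and is controlled mainly by translation, had a log2 difference of 0.07 ± 0.16 and was not called. Of 9 cell wall and surface genes, 6 fell and 1, the uncertain PAU2, rose; UTR2, a chitin transglycosylase, fell by 2.58 ± 0.18. Of 13 membrane transport genes, 7 fell and 2 rose; VTC1, of the vacuolar transporter chaperone complex, fell by 1.48, and CAN1, the arginine permease, had a difference of -0.29 ± 0.12 and was not called.

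More genes of meiosis rose than fell. Of 7 meiotic and sporulation genes 5 rose and 0 fell in WT at 48 h; DMC1, the meiotic recombinase, had 55 and 64 reads at 48 h, against 13 and 12 in log phase, a log2 change of 2.70 ± 0.32, and MAM1, which acts at the kinetochore in the first meiotic division, rose by 3.59 ± 0.39. These genes are read at low counts in every library. In the same WT libraries 8 of 11 genes repressed in a/alpha diploids also rose, and their summed level was 204 to 231 RPM at 48 h, against 47.7 to 54.2 in log phase; their part in the meiotic values was not tested. Of 20 mitochondrial genes, 8 rose and 4 fell, where 33.0% of all genes were higher and 30.1% lower, and no direction is read for this list; RIP1, the Rieske iron-sulphur protein of the respiratory chain, rose by 1.75. Of 14 genome maintenance genes, 3 rose and 4 fell; MAG1, a DNA glycosylase, rose by 2.1, whereas RAD23, of nucleotide excision repair, fell by 1.34. Of 19 chromatin and transcription genes 5 rose and 7 fell, with SPT15, the TATA-binding protein, lower by 1.64. Of 9 ubiquitin and proteasome genes, 2 rose and 2 fell. Under quantile normalization the medians of the genome maintenance and ubiquitin lists changed sign, to -0.39 and 0.45, against 0.06 and -0.04 as deposited, so no direction is given for them.

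Beside this, 8 of 9 markers of daughter cells fell in WT at 48 h, among them the chromosome V gene DSE1, a daughter-specific wall gene. DSE1 had 8.77 and 9.54 in WT at 48 h, against 10.41 and 10.39 in log phase, and fell by 1.25 ± 0.18 (SE; limma adjusted p = 2.7e-05). At 48 h 8 of the 9 markers also fell in mus81, but only 1 fell and 0 rose in the translocation table. Their median log2 change there was -0.38, in a fit with 2 residual degrees of freedom. The summed markers there rose from 1991 RPM in log phase to 2627 at 48 h in wt GST-V-U. In XIIr<>V they rose from 2123 to 2285, with 1 library per strain and age. The part of cell type composition in the other changes was not tested.

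**Figure D5:**
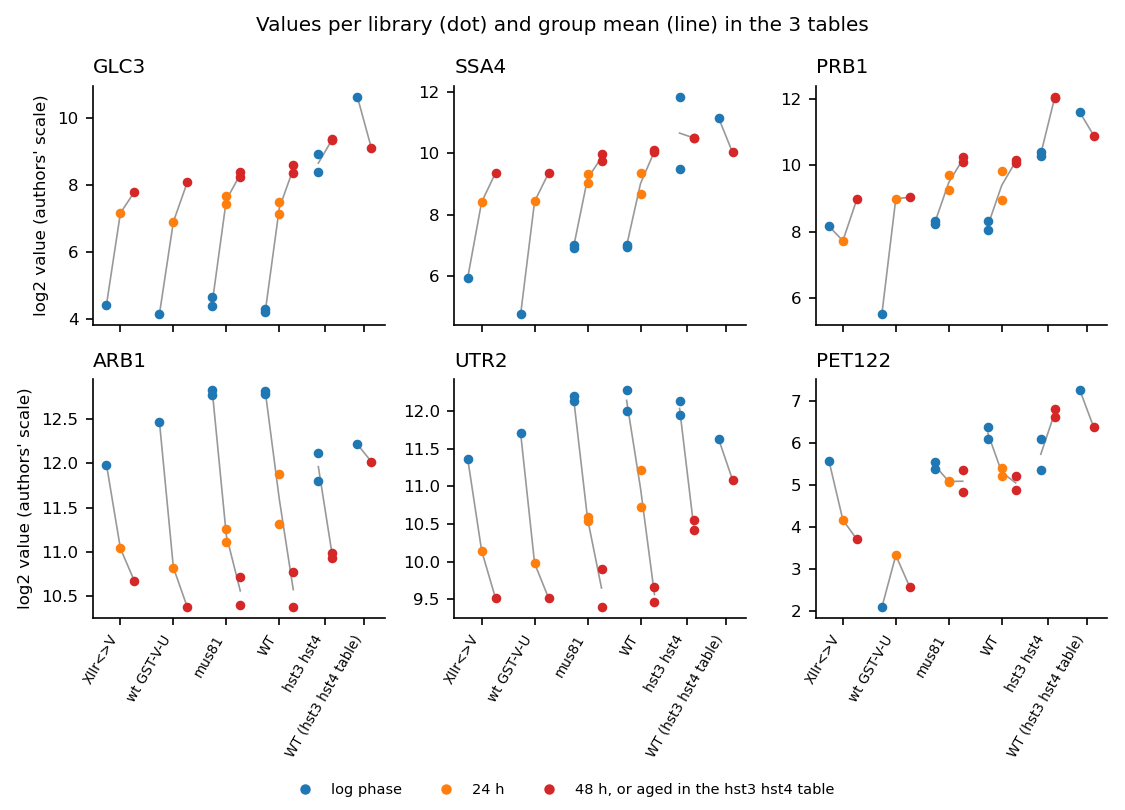
Log2 values of 6 chromosome V genes in each of the 24 libraries (points; y axis, the authors' scale, which differs between tables) by strain and age, with lines through group means. GLC3 and SSA4 lie higher at later ages in the first 4 groups, ARB1 and UTR2 lower, and in the hst3 hst4 table GLC3 lies at 9.11 in the aged WT library, below the WT log library at 10.63.

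The changes with age were spread over the chromosome, and 2 stretches leaned lower. In WT at 48 h the median of chromosome V stood at -0.08 relative to all genes above the 25th percentile of level, where XII right of the rDNA stood at 0.60. The bin from 77652 to 130305 on the left arm stood at -0.52, with 15 of 24 genes lower and 3 higher, and the bin from 393568 to 446220 on the right arm at -0.59, with 10 of 19 lower and 1 higher. Of all genes above that level, 39.4% were lower and 28.4% higher, and in these bins 62.5% and 52.6% were lower. These 2 bins had the lowest medians of the 10. By share the right-arm bin was close to the bin from 498872 to 551525, where 50.0% were lower and the median stood at -0.23. In mus81 at 48 h these bins stood at -0.59 and -0.28, in the translocation table at -0.24 and -0.42, and in aged hst3 hst4 cells at -0.33 and -0.59, where the bin from 235610 to 288262 stood at -0.35. The right-arm bin holds 4 of the 19 ribosome and translation genes and 0 of the 18 stress genes, and the left-arm bin holds 2 of each. UTR2 lies in the left-arm bin, and DSE1 and the ribosomal protein gene RPS26B in the right-arm bin.

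Genes next to each other on chromosome V did not change alike. Among 162 adjacent pairs that do not overlap and pass the level filter, the correlation of their WT 48 h changes was -0.03 (Pearson's r, across pairs that share libraries and genes). In the 37 divergent pairs, which share 1 upstream region, r was -0.34, and of 13 pairs with both genes called, 9 went in opposite directions. ARB1 and PHM8 are such a pair, with 689 bases between them, and changed by -2.22 and 2.84. In the 78 same-strand pairs r was 0.13, and 21 of 39 pairs with both called went the same way. UBC8 and GLC3, 568 bases apart on the same strand, both rose, by 2.13 and 4.23, and PRB1 and SOM1, 446 bases apart, rose by 1.94 and 1.90.

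Of the promoters of the 303 genes, 69 (22.8%) held AGGGG on either strand, and of all 6663 promoters of the same length 21.4% did. The share was 30.3% (27 of 89) among genes that rose in WT at 48 h, 14.4% (14 of 97) among those that fell and 23.9% among those not called. TGACTC was in 16.9% (15 of 89) of the promoters of genes that rose, 7.22% of those that fell and 8.09% of all promoters. GATGAG was in 21.3% of promoters of genes that rose, 20.6% of those that fell and 20.2% of all. ACGCGT was in 3.63% of the 303 and 2.93% of all promoters. URS1 was in 3.96% of the 303 and 5.19% of all. These are counts of letters and carry no test.

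Loss of MUS81, which encodes a subunit of a structure-specific DNA endonuclease, touched few genes of chromosome V. In log phase 1 of 303 genes was called against WT, higher in mus81, where 0.405% of all genes were called (0.3% higher, 0.105% lower). At 24 h 1 was higher and 1 lower, where 0.886% of all genes were called (0.706% higher, 0.18% lower), and at 48 h also 1 higher and 1 lower, where 0.15% of all genes were called (0.03% higher, 0.12% lower). URA3, orotidine-phosphate decarboxylase, whose gene is widely used as a selectable marker, had 597 and 332 reads in mus81 in log phase, against 2 and 4 in WT; at 24 h it had 279 and 213 reads in mus81, against 14 and 35, and at 48 h 246 and 188, against 20 and 6. At every age both mus81 libraries lay above both WT libraries, and at 24 h the WT libraries, with log2 values of 3.61 and 6.72, differed more from each other than the higher of them did from mus81 at 7.92 and 7.85. The limma adjusted p was 0.00013 in log phase, 0.093 in 24 h cells and 0.048 in 48 h cells. Within 20 kb of URA3, 0 of 23 neighbours were called between mus81 and WT at any age. DSE1 had log2 values of 8.67 and 8.51 in mus81 at 24 h, against 9.45 and 9.57 in WT, and 8.14 and 8.12 in mus81 at 48 h, against 8.77 and 9.54 in WT. It was lower by 0.92 ± 0.18 and 1.03 ± 0.18 (SE; limma adjusted p = 0.035 and 0.033), and the summed daughter markers were at 1286 to 1568 RPM in mus81 at 24 h, against 1914 to 2215 in WT. Both DSE1 calls were lost without either mus81 library of that age or without the second WT library of that age, with differences of -0.64 to -1.03 at 48 h and adjusted p from 0.093 to 0.34. YEL067C was called at 24 h on 25 and 21 reads in mus81, against 9 and 0 in WT. The change from log to 48 h differed between mus81 and WT for 0 of 303 genes (limma; 0.0751% of all genes were called), with 20 (6.60%) at an unadjusted p under 0.05 against 4.88% of all genes, and 0 by limma-voom.

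The hst3 hst4 mutants lack a pair of sirtuin deacetylases that act on histone H3 lysine 56. The share of chromosome V genes called against WT was near that of all genes in log phase and lower in aged cells. Of 301 genes tested, 56 (18.6%) were called in log phase (39 higher, 17 lower), where 17.1% of all genes were (8.7% higher, 8.36% lower). Without the first or the second hst3 hst4 log library the log-phase count was 199 or 171, with the spread then estimated from the aged pair alone. In aged cells 39 were called (16 higher, 23 lower), where 16.9% of all genes were (8.44% higher, 8.49% lower). The lone WT libraries are assumed to vary like the mutant pairs, and 1 library of each mutant pair was sequenced on another lane. The column names of both WT libraries carry a batch tag that no hst3 hst4 column name carries. Differences of genotype and of this tag cannot be told apart. VTC1 had 12.55 and 12.79 in hst3 hst4 log cells, against 10.47 in WT, and was higher by 2.2 ± 0.17 (SE; limma adjusted p = 0.0069). DOT6, a repressor of ribosome biogenesis genes, had 9.62 and 8.94, against 11.68 in WT, and GLC3 had 8.91 and 8.39, against 10.63 in WT. Of the 19 ribosome and translation genes 5 were higher and 0 lower in hst3 hst4 in log phase, and 0 higher and 9 lower in aged cells; NOP16 and UTP7, of ribosome biogenesis, were higher by 1.17 and 1.06 in log phase, and RPS26B was lower by 1.39 ± 0.15 in aged cells. In aged cells PRB1 was higher by 1.15, and HIS1 and DSE1 were lower by 1.33 and 1.80. Without either aged hst3 hst4 library, 1 of the 39 aged calls was left. With an aged library left out, the spread was estimated from the log pair alone. That pair differed by a median of 0.27 over chromosome V genes, against 0.11 in the aged pair. In log phase all 9 daughter markers were lower in hst3 hst4 than in the lone WT library. In that comparison 9 of 11 genes repressed in a/alpha diploids were higher. The daughter markers summed to 5277 RPM in that WT library and to 2035 to 2251 in hst3 hst4 log. In log phase they summed to 2487 to 3326 RPM in WT of the mus81 table and to 1991 in wt GST-V-U. The part of cell type in these values was not tested. URA3 had 1057 and 776 reads in hst3 hst4 log cells and 611 and 631 in aged cells, against 0 in either WT library.

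Some stress genes were high in the WT log library of this table. GLC3, SSA4 and PIC2 had log2 values of 9.11, 10.03 and 10.49 in the aged WT library, against 10.63, 11.15 and 12.41 in the WT log library, in the opposite order to WT of the mus81 table. GLC3 and PIC2 were lower in both hst3 hst4 log libraries than in WT, but SSA4 had 9.48 and 11.84 and PHM8 9.70 and 10.39 in hst3 hst4 log, against 11.15 and 9.01 in WT log, and 5 of the 18 stress genes were called lower and 1 higher. In hst3 hst4, aged against log, 152 of 301 genes were called (64 higher, 88 lower), where 52.2% of all genes were (28.6% higher, 23.6% lower), with 10 of 18 stress genes higher and 3 lower, and 17 of 19 ribosome and translation genes lower. AVT6, a vacuolar amino acid transporter, rose by 2.23 ± 0.38 and ARG5,6, of arginine synthesis, by 1.86 ± 0.11, and RGI1 fell by 2.61 ± 0.20. The median of chromosome V in hst3 hst4 against WT stood at 0.16 and 0.06 relative to all genes in the 2 log libraries and at -0.02 and -0.03 in the aged ones, where chromosome I stood at 0.63 to 0.74 in all 4.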

How the data were processed

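Poly(A)+ RNA of 24 libraries was sequenced. The deposited tables hold log2 read counts per gene scaled for each library by the authors, with a read count of 0 entered as 0.9; the submitters' processing notes name Trim Galore 0.6.6, HISAT2 2.1.0 and build R64. Not given in the sources used here are the counter, whether it used strand, and how libraries were scaled; the kit is directional per the labels' protocols, and overlapping opposite-strand genes had separate values (HYP2 175438 reads, YEL034C-A 160). Reads were recovered from the deposited log2 values: 100% of low values were whole within 0.02 of a read. Library totals were 1656535 to 11330955 reads, which limits precision for genes of few reads.

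From these values, log2 differences were tested with limma 3.58.1 (R 4.3.3; lmFit, eBayes with trend, two-sided), over all features above the floor in at least 2 libraries of a table, with Benjamini-Hochberg adjustment over all of them and calls at an adjusted p under 0.05. The mus81 table was fitted with 6 group means, leaving 6 residual degrees of freedom. The table of hst3 hst4 libraries was fitted with 4 group means and the translocation table with additive strain and age terms, each leaving 2. No fold change is measured across tables, since each was scaled separately. The script was tested on simulated data. Alternatives were quantile normalization, median centring, no filter, a filter at the 25th percentile of level, limma-voom on recovered reads (library sizes from median ratios), replicate blocks and leaving out each library or age.

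Named genes were, for WT 48 h against log, the 10 widest rises and 10 widest falls among called genes above the 25th percentile of level with no overlap between groups; for other comparisons the first 5 of each; for the strains, the 10 of each sign with the largest smallest-of-3 age difference; and up to 4 per gene list. URA3, CAN1, HIS1, GCN4 and genes near the centromere, URA3 and the limits were eligible in addition. PRB1, CHD1, OXA1, MCM3, BOI2, PTC2, PET122 and MEI4 in the strain comparison, and the gene pairs, were chosen after their values were seen. The genes and lists were chosen with earlier results of these data known. Of the 6664 genes, 5980 have identical coordinates in the RefSeq annotation of R64. Adjacent pairs, bins and motif counts are descriptions with no test.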

Additional observations from a re-analysis of the deposited data

How the results depend on the processing

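Of the 1392 recomputed values of named genes, 1357 kept their direction and their side of the threshold, 32 kept the direction and lost the call, 3 gained one, and 0 changed sign. Counts of called chromosome V genes kept within 1.5 times the values given for WT and mus81 against log under every alternative run. For XIIr<>V against wt GST-V-U the count was 0 under both other scalings, both filters, limma-voom and removal of a gene length trend per library (chosen after seeing the data), 0 to 8 when 1 library was left out, and 8 without both 24 h libraries. Leaving out 1 library gave 110 to 142 calls for WT at 24 h, 156 to 166 for WT at 48 h, 119 to 130 and 140 to 163 for mus81 at 24 h and 48 h, 1 in log phase, 0 to 31 at 24 h (31 without the first WT 24 h library) and 0 to 2 at 48 h for mus81 against WT, and 0 for the difference in ageing. It gave 67 to 220 for aged hst3 hst4 against log, 171 to 199 in log phase and 1 in aged cells for hst3 hst4 against WT, 69 to 105 for 24 h and 22 to 138 for 48 h in the translocation table (22 without the wt GST-V-U library, 44 without the XIIr<>V library of that age). Without features under the 25th percentile the counts were 0, 1 and 1 for mus81 against WT at the 3 ages and 59 for 24 h in the translocation table. Quantile normalization gave 0 for mus81 against WT at 24 h and 54 for 24 h in the translocation table (26 higher, 28 lower, against 60 and 37), and median centring 85 for hst3 hst4 against WT in log phase (66 higher, 19 lower, against 39 and 17). Quantile normalization gave 52 higher and 12 lower in that comparison and 50 higher and 107 lower for aged hst3 hst4 against log, against 64 and 88, and limma-voom gave 13 higher and 34 lower for aged hst3 hst4 against WT, against 16 and 23. The cause of these shifts was not tested.

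Same-numbered libraries deviated together with r over 0.1 in 7 of 15 pairs of groups in the mus81 table and with r of -0.02 in the hst3 hst4 table. These values do not settle whether the numbers pair the samples. In the hst3 hst4 table the number goes with the sequencing lane, since the second library of each mutant pair came from another lane. The column names of the mus81 table also carry a tag, 41 or 42, whose order is reversed against the title numbers at 24 h; libraries of the same tag deviated together with r over 0.1 in 4 of 15 pairs of groups, and with the tag as a replicate block every count of calls lay within 1.5 times the value given (184 for WT at 48 h against log, 1 for mus81 against WT in log phase). With the replicate number as a block, mus81 against WT in log phase had 2 called genes, WT at 48 h against log 193, hst3 hst4 against WT 46 in log phase and 28 in aged cells; the XIIr<>V comparison has no replicates to block.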
